A study of Mus musculus with 24 samples.

Results

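The enzymes described here carry glucose through uptake, glycolysis, the pentose phosphate pathway, gluconeogenesis, glycogen storage and fructose entry in mouse liver. They were chosen as the gene table's rows for 37 listed symbols. An older name and a current name of the muscle-type pyruvate kinase, Pkm2 and Pkm, led to the same row, so 36 genes of the 37583 in the table were followed. All 36 passed the filter on low values, a normalised count of at least 10 in at least 3 libraries, which 16471 genes of the table passed.

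RNA was sequenced from whole livers of C57BL6/CBA mice aged 8.5 months, in 4 groups of 3 libraries. WT livers came from untreated mice with an intact Smyd3 gene, which encodes a lysine methyltransferase. KO livers came from untreated mice carrying a gene trap in intron 5 of Smyd3 in every tissue, DEN_WT livers from WT mice given a single intraperitoneal injection of 25 mg/kg diethylnitrosamine (DEN), a liver carcinogen, and DEN_KO livers from KO mice given the same injection. The trap lies downstream of exons that can still be transcribed. Regions bound by Smyd3 in DEN_WT liver, and regions marked by histone H3 lysine 4 trimethylation (H3K4me3) in DEN_WT and in DEN_KO liver, were available as 1 list per group from 2 replicates each. The labels do not say that each library came from a different animal, so p-values measure the spread between these libraries, and in whole liver fewer cells of a type and less RNA per cell cannot be told apart.

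Smyd3 itself stood at 59 to 89 normalised counts in WT, 17 to 29 in KO, 57 to 74 in DEN_WT and 3 to 12 in DEN_KO, with no overlap between intact and trapped livers. The normalised counts summed to between 22320634 and 28973396 per library, and the 10 most abundant genes held 22.4% to 33.4% of that sum in DEN_WT against 15.1% to 20.6% elsewhere. Among 13 lists of cell type markers, the 10 hepatocyte markers were all measured, with Alb at 904165 to 3386204 normalised counts. Of the 10, 3 rose and 2 fell in DEN_WT against WT, and 4 were higher and 1 lower in DEN_KO against DEN_WT. Asgr1 was at 5341 to 7899 in DEN_WT and 11373 to 13629 in DEN_KO, and Cps1 at 18168 to 36962 and 33319 to 58771. Other hepatocyte markers went the opposite way. Alb was at 2081265 to 3386204 in DEN_WT and 904165 to 1607401 in DEN_KO. Apoa1 was at 579401 to 690158 and 380659 to 455716, and Ahsg at 441476 to 760509 and 201790 to 297773, in the same order. The sum of all 10, most of it Alb, was 2309493 to 2514158 in WT, 2010791 to 3315732 in KO, 3515519 to 5446474 in DEN_WT and 1990001 to 2879153 in DEN_KO. All 8 markers of dividing cells rose in DEN_WT against WT, summing to 655 to 2759 against 93 to 167 in WT, 117 to 173 in KO and 343 to 533 in DEN_KO. In DEN_KO against DEN_WT, 6 of these 8 were lower and 0 higher. Of 9 stellate cell and fibroblast markers 5 rose and 1 fell in DEN_WT against WT, and 5 were lower and 0 higher in DEN_KO against DEN_WT. They summed to 8804 in DEN_WT replicate 1, to 3898 and 4222 in the other DEN_WT libraries, to 3435 to 3955 in WT, to 2587 to 3603 in KO and to 3098 to 3486 in DEN_KO. The sum hides opposite changes in DEN_WT. Col3a1 was at 346 to 487 in WT and 1052 to 2813 in DEN_WT, and Dcn at 2167 to 2610 and 939 to 2138. Of 8 endothelial markers 5 rose in DEN_WT, summing to 8400 to 8684 there, 5613 to 7252 in WT, 6602 to 7142 in KO and 6991 to 8335 in DEN_KO. Against DEN_WT, 2 of these 8 were lower in DEN_KO and 0 higher. The macrophage and myeloid sum was 3911 to 3986 in WT, 4511 to 5492 in KO, 3728 to 9022 in DEN_WT and 6979 to 8509 in DEN_KO. The cholangiocyte sum of 9760 to 16673 in DEN_WT, against 810 to 1827 in the other groups, was almost wholly Spp1, while Krt7, Krt19 and Epcam stayed at 11 to 53 there. The part of these cell markers in the results below was not tested.

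As background, a hepatocyte takes up glucose through the carrier Slc2a2, phosphorylates it, and can send glucose 6-phosphate to glycolysis, to glycogen, or to the pentose phosphate pathway, which makes NADPH and ribose 5-phosphate. Liver differs from most tissues in that it can also run the route backwards, making glucose from pyruvate, lactate and glycerol through Pcx, Pck1, Fbp1 and G6pc. Several steps are encoded by paired isoforms, 1 typical of hepatocytes and 1 of other or dividing cells, such as Pklr and Pkm for pyruvate kinase or Slc2a2 and Slc2a1 for glucose entry.

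The promoters of 4 members are printed because these members differ in role and in pattern over the groups: a liver pyruvate kinase, a carrier, the first committed enzyme of gluconeogenesis and the first of the pentose phosphate pathway. The motif to mark was set for each of these genes, and so was the Pklr start. The marked matches are therefore illustrations and not results. Each is the 250 bases before a RefSeq start on GRCm38.p6, 5′ to 3′ along the gene, and capitals mark the match of a motif searched on both strands. The GRCm38.p6 positions cannot be set beside the mm9 positions given for the study's own files. Pklr, plus strand, chr3:89136373-89136622, is the more downstream of its starts in the table; Slc2a1, plus strand, is chr4:119108495-119108744; Pck1, plus strand, is chr2:173152823-173153072; and G6pdx, minus strand, is chrX:74428881-74429130.
Pklr: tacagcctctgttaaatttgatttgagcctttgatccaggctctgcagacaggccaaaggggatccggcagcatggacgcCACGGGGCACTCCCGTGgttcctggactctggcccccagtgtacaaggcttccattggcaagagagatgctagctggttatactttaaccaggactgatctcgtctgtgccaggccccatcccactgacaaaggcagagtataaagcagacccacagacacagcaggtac
Slc2a1: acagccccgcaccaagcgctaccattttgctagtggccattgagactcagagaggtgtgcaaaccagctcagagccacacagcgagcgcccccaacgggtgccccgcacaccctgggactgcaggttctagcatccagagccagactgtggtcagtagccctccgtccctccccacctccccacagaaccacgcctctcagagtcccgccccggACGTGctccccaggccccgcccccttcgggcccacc
Pck1: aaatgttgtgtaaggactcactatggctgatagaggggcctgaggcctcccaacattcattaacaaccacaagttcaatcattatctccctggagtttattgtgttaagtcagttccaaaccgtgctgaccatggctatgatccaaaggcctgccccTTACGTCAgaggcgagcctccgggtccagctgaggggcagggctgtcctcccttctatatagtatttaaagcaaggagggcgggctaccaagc
G6pdx: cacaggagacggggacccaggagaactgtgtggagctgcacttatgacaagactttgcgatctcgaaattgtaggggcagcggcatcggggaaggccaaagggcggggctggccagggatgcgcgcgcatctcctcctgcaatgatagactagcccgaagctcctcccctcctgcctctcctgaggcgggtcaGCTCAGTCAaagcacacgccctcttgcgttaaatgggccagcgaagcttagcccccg

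In Pklr the capitals mark the arrangement known for carbohydrate response elements, searched as CACGNG, 5 bases, then CNCGTG. It lies 170 to 154 bases before the start and occurs in 0.0396% of the 32851 promoters of the same length, and Pklr alone holds it among the 35 members with a promoter in the table. In Pck1 they mark the cyclic AMP response element TTACGTCA, 93 to 86 bases before the start, which 0.447% of promoters hold and no other member does. The hypoxia response core ACGTG, marked in Slc2a1 at 36 to 32 bases before the start, is common. It is held by 16.6% of all promoters and by 16 of the 49 promoters of members, at 14 of 35 members. It lies inside the E-box CACGTG, found in 6.02% of promoters and in 5 of the 49 promoters of members. The antioxidant response core TGACNNNGC, marked on the opposite strand of G6pdx at 57 to 49 bases before the start, is held by 10.2% of promoters and by 6 of the 49 promoters of members. The TATA box TATAAA was found in 12.4% of promoters and in 2 of the 49 promoters of members, at G6pc and Pklr. A match describes letters only, and several members have more than 1 promoter in the table.

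The first comparison asked what DEN did in livers with intact Smyd3. Relative to WT, 9 of 36 enzymes rose in DEN_WT (25.0%, where 16.1% of all genes tested rose) and 3 fell (8.3%, where 13.5% of all genes fell). Those that rose were 2 of 4 carriers (Slc2a1 and Slc16a3), 1 of 3 hexokinases (Hk1), 3 of 7 enzymes of upper glycolysis (Gpi1, Pfkp and Aldoa), the pyruvate kinase Pkm, and 2 of 6 pentose phosphate enzymes (G6pdx and Pgd). Those that fell were Pklr, Taldo1 and Pygl. The median change over the 36 was 0.02 on the log2 scale, beside -0.02 over all genes tested, and ran from -0.05 to 0.29 under other scalings, so the median gives no direction. All fold changes here are on the log2(value + 1) scale, and a gene was called at an adjusted p below 0.05 from limma.

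**Figure D1:**
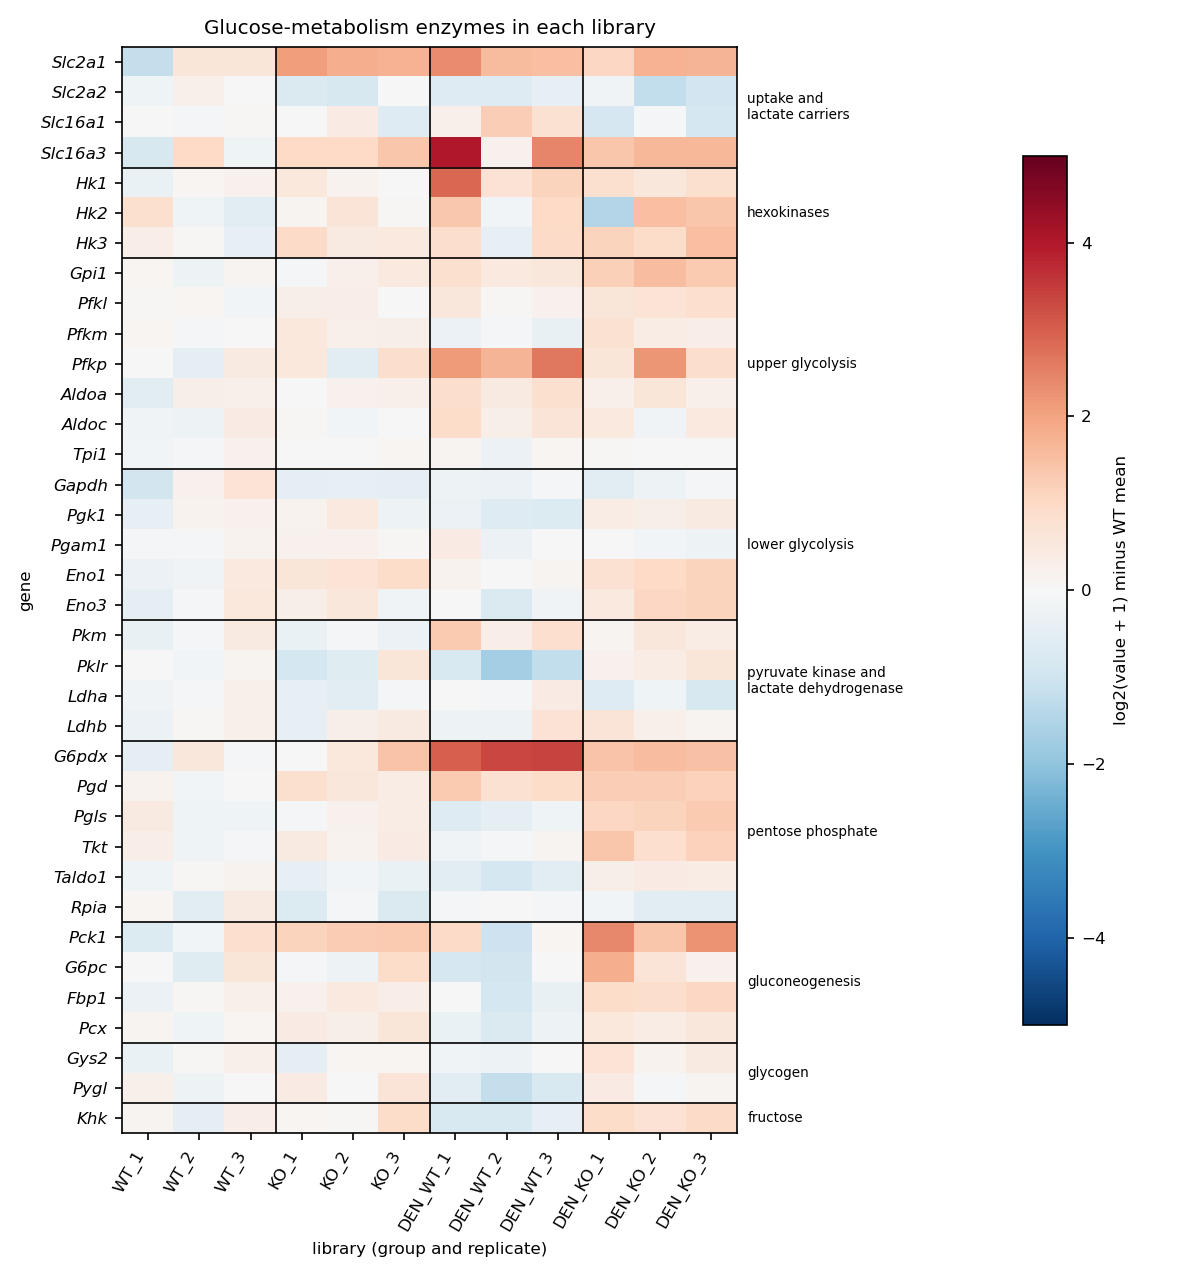
Each cell shows, for 1 gene (rows, grouped by role) in 1 library (columns), log2(normalised count + 1) minus the mean of the 3 WT libraries. G6pdx is high in the 3 DEN_WT libraries, while the gluconeogenesis rows are higher in DEN_KO than in DEN_WT.

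The second comparison asked how livers carrying the Smyd3 trap differed from intact ones after DEN. Here 16 of 36 enzymes were higher in DEN_KO than in DEN_WT (44.4%, where 16.4% of all genes were higher) and 3 were lower (8.3%, where 17.4% of all genes were lower). All 4 gluconeogenesis enzymes, both glycogen enzymes, the fructose enzyme Khk, 3 of 6 pentose phosphate enzymes and 3 of 5 enzymes of lower glycolysis were among those higher. Those lower were G6pdx, Slc16a1 and Ldha. The median change was 0.35, beside -0.06 over all genes tested.

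Of the 3 other contrasts, KO against WT called only Slc2a1, which was higher (2.8% of members, where 0.546% of genes were higher and 0.613% lower). DEN_KO against KO called 5 enzymes higher and none lower (13.9%, where 8.91% of genes were higher and 6.02% lower). The last contrast was the difference between the DEN effect in KO and that in WT, called the interaction below. It was positive for 5 enzymes and negative for 2 (13.9% and 5.6%, where 8.73% and 7.83% of genes were). The comparisons share libraries: DEN_WT against WT and DEN_KO against DEN_WT both use the DEN_WT livers, so a DEN_WT value that is off moves them in opposite directions. Of the 36 enzymes, 26 were called in at least 1 comparison. The matching share of all genes was not computed, so that count is not a result about these enzymes.

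**Figure D2:**
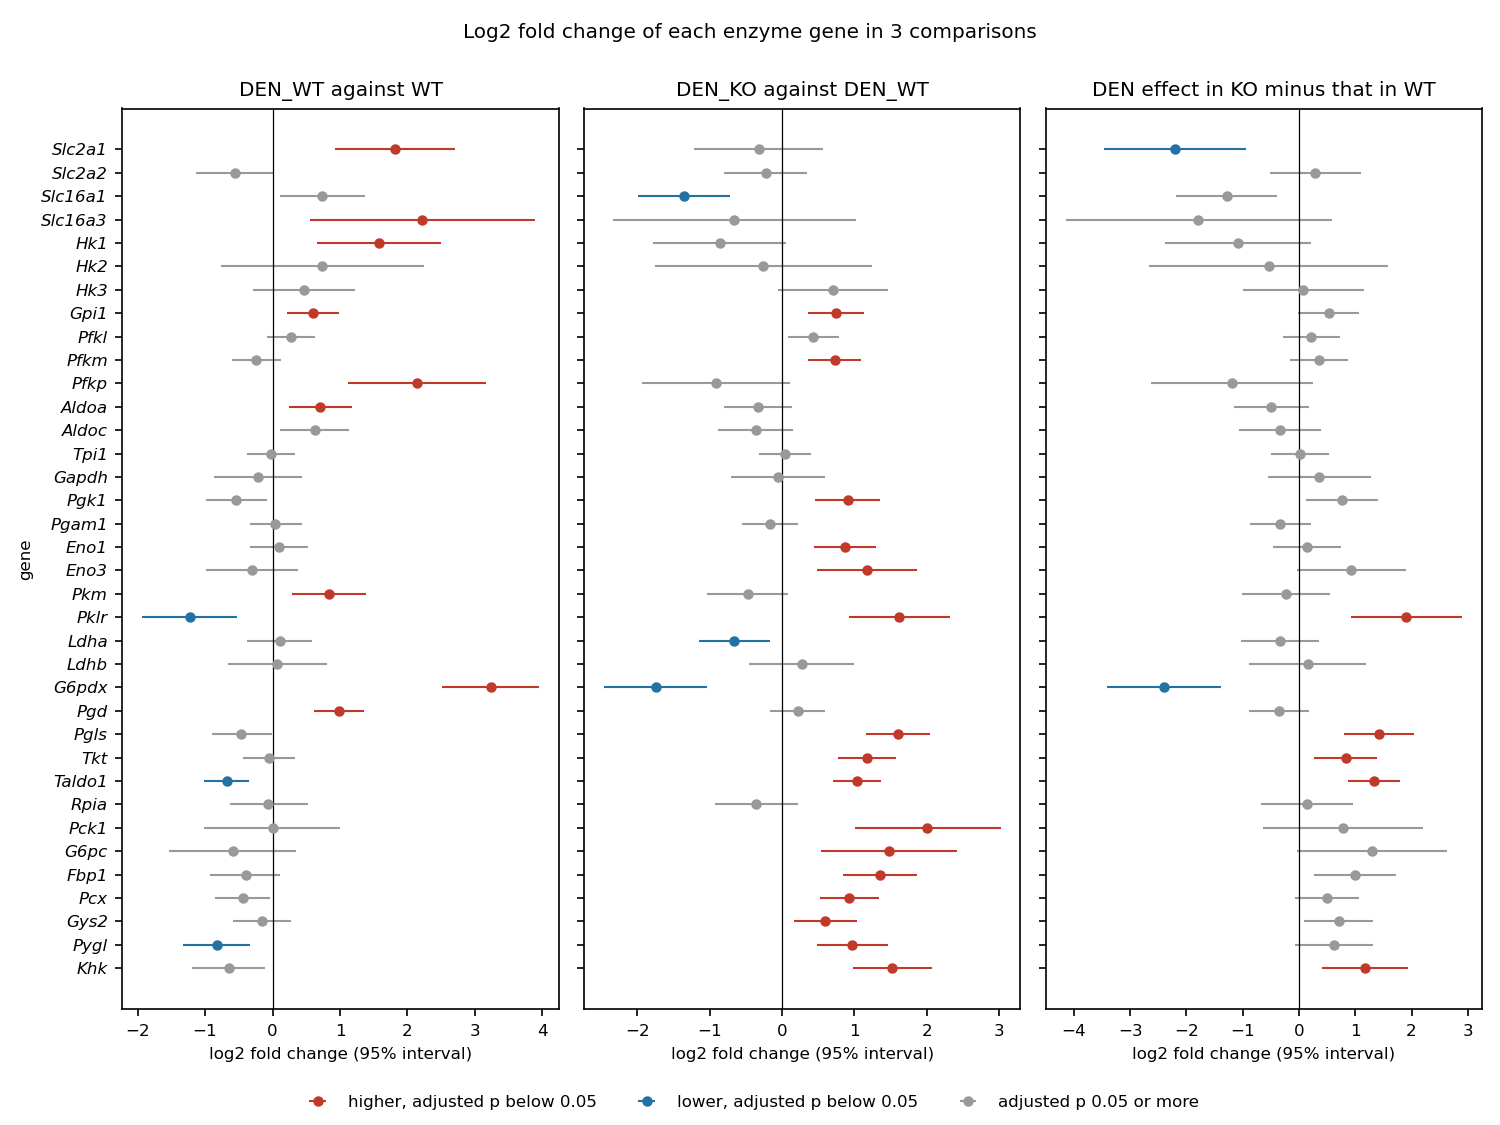
Points give the log2 fold change of each gene and bars its 95% interval, for DEN_WT against WT (left), DEN_KO against DEN_WT (middle) and the interaction (right); colour gives the call. In the middle panel 16 genes are higher and 3 lower.

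The carriers come first. Slc2a1, the glucose carrier of most dividing and non-hepatic cells, stood at 37, 131 and 130 normalised counts in WT, 369, 302 and 289 in KO, 452, 259 and 243 in DEN_WT, with 179, 289 and 281 in DEN_KO. The WT libraries were the lowest, and the other 3 groups overlapped. Slc2a1 was higher in DEN_WT than in WT by 1.82 ± 0.41 (log2, SE; adjusted p = 0.0049) and in KO than in WT by 1.88 ± 0.41 (adjusted p = 0.046), and the interaction was -2.20 ± 0.58 (adjusted p = 0.023). Without WT replicate 1 these values were 1.22, 1.28 (adjusted p = 0.06) and -1.60. The KO call was also lost without WT replicate 2, KO replicate 1 or 2, DEN_WT replicate 2 or 3, or any DEN_KO library, with adjusted p between 0.053 and 0.17, and the interaction was lost without KO replicate 1 or DEN_KO replicate 1 (adjusted p = 0.055 each). Slc2a2, the main hepatocyte glucose carrier, was called in none of the comparisons, at 7036 to 9755 in WT, 4712 to 8288 in KO, 5307 to 6222 in DEN_WT and 3568 to 7224 in DEN_KO. The 95% interval of its change in DEN_WT ran from -1.14 to 0.02.

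Slc16a1, a carrier of lactate and other monocarboxylates, was at 1789, 1676 and 1827 in WT, 1781, 2372 and 1115 in KO, 2096, 4102 and 2980 in DEN_WT, with 988, 1638 and 948 in DEN_KO. Every DEN_KO library was below every DEN_WT library, a difference of -1.35 ± 0.29 (adjusted p = 0.0037). Its rise in DEN_WT, 0.74 ± 0.29, did not pass (adjusted p = 0.073). Slc16a3, the lactate exporter of highly glycolytic cells, was near the lower limit, at 1, 6 and 2 in WT, 6, 6 and 8 in KO, 55, 3 and 18 in DEN_WT, with 8, 10 and 10 in DEN_KO. Its call in DEN_WT (2.22 ± 0.78, adjusted p = 0.045) rests on 2 DEN_WT libraries, the groups overlapped, and the call was lost on leaving out any library but WT replicate 2 or DEN_WT replicate 2, with 1.33 and adjusted p = 0.2 without DEN_WT replicate 1.

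Among the hexokinases, which trap glucose as glucose 6-phosphate, Hk1 was called. It was at 36, 48 and 53 in WT, 65, 51 and 45 in KO, 333, 76 and 100 in DEN_WT, with 79, 67 and 79 in DEN_KO. DEN_WT lay above WT by 1.58 ± 0.43 (adjusted p = 0.014), and by 0.94 (adjusted p = 0.034) without DEN_WT replicate 1, the library that also had the highest stellate and fibroblast marker sum, 8804. Hk2 ranged from 5 to 46 and Hk3 from 42 to 159 over the 12 libraries, and neither was called.

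In upper glycolysis Gpi1, which interconverts glucose 6-phosphate and fructose 6-phosphate, was at 1186, 948 and 1237 in WT, 1055, 1328 and 1559 in KO, 1931, 1549 and 1632 in DEN_WT, with 2539, 3243 and 2790 in DEN_KO. The DEN_KO livers were the highest of the 4 groups, above KO by 1.13 ± 0.18 (adjusted p = 0.002) and above DEN_WT by 0.74 ± 0.18 (adjusted p = 0.0062). DEN_WT was itself above WT by 0.60 ± 0.18 (adjusted p = 0.021), a call lost without WT replicate 2 (0.49, adjusted p = 0.09) or DEN_WT replicate 1 (0.51, adjusted p = 0.079). The interaction of Gpi1 was 0.53 ± 0.25 and did not pass (adjusted p = 0.17).

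Phosphofructokinase commits sugar to glycolysis and has a liver (Pfkl), a muscle (Pfkm) and a platelet (Pfkp) form. Pfkp was at 23, 16 and 31 in WT, 33, 15 and 42 in KO, 101, 75 and 144 in DEN_WT, with 35, 108 and 42 in DEN_KO. All DEN_WT libraries exceeded all WT libraries (2.14 ± 0.47, adjusted p = 0.0041), and DEN_KO was spread from the untreated level to the DEN_WT level. Pfkm instead was at 316, 283 and 299 in WT, 437, 359 and 371 in KO, 247, 280 and 234 in DEN_WT, with 507, 391 and 372 in DEN_KO, higher in DEN_KO than in DEN_WT by 0.73 ± 0.17 (adjusted p = 0.0054). Pfkl ranged from 494 to 968 and was not called. Its DEN_KO libraries (834 to 968) all lay above its DEN_WT libraries (563 to 800), with 0.43 ± 0.16 and an adjusted p of 0.055.

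Aldolase A, Aldoa, rose in DEN_WT from 1304, 2324 and 2278 to 3548, 2573 and 3283 (0.71 ± 0.22, adjusted p = 0.026), with 1902 to 2280 in KO and 2264 to 2894 in DEN_KO. That call was lost without WT replicate 1 (0.43, adjusted p = 0.096), DEN_WT replicate 1 (adjusted p = 0.089) or DEN_WT replicate 3 (adjusted p = 0.078). Aldoc (233 to 530) and Tpi1 (5795 to 8350) were called nowhere. The intervals of Tpi1 were among the narrowest of the members, with a change of -0.02 ± 0.17 in DEN_WT and 0.04 ± 0.17 in DEN_KO against DEN_WT.

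Lower glycolysis, from glyceraldehyde 3-phosphate to phosphoenolpyruvate, had no member called in DEN_WT against WT and 3 of 5 higher in DEN_KO against DEN_WT. Pgk1, which makes ATP at the first payoff step, was at 1735, 2594 and 2658 in WT, 2590, 3210 and 1936 in KO, 1878, 1473 and 1414 in DEN_WT, with 2984, 2805 and 3107 in DEN_KO (0.91 ± 0.21, adjusted p = 0.0053). Enolase 1, Eno1, was at 3513, 3821 and 6079 in WT, 6651, 6885 and 8121 in KO, 4856, 4259 and 4748 in DEN_WT, with 7420, 8714 and 9284 in DEN_KO. DEN_KO lay above DEN_WT by 0.87 ± 0.20 (adjusted p = 0.0053), and all KO libraries also lay above all WT libraries, by 0.73 ± 0.20, which did not pass (adjusted p = 0.1). The muscle enolase, Eno3, went from 68, 41 and 61 in DEN_WT to 96, 140 and 148 in DEN_KO, with 49 to 100 in WT and 61 to 102 in KO. That difference, 1.17 ± 0.32 (adjusted p = 0.013), was lost without DEN_WT replicate 2 (0.95, adjusted p = 0.059) or DEN_KO replicate 3 (1.05, adjusted p = 0.056).

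Gapdh and Pgam1 were called nowhere. Gapdh spread from 7593 to 22438 within WT alone, wider than over the other 9 libraries (9914 to 13372), and Pgam1 from 2773 to 4552 over all 12. Gapdh, Pgk1, Pgam1, Eno1, Aldoa, Tpi1 and Ldha have processed copies elsewhere in the genome that share sequence with them, and how reads were split between copies is not given in the sources used here, so their levels are less certain.

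At the last step of glycolysis the liver-type and muscle-type pyruvate kinases moved in opposite directions in DEN_WT against WT. Pklr was at 7492, 6672 and 8045 in WT, 4028, 4853 and 11214 in KO, 4367, 2280 and 3131 in DEN_WT, with 8530, 9433 and 11218 in DEN_KO. The DEN_WT livers were below WT by -1.23 ± 0.32 (adjusted p = 0.012), and the DEN_KO livers were above DEN_WT by 1.62 ± 0.32 (adjusted p = 0.0023), with no overlap in either case. The interaction was 1.91 ± 0.46 (adjusted p = 0.015). Without DEN_WT replicate 2 the fall in DEN_WT was -1.0 and no longer passed (adjusted p = 0.053).

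Pkm was at 220, 270 and 390 in WT, 229, 266 and 230 in KO, 712, 362 and 518 in DEN_WT, with 311, 427 and 374 in DEN_KO. It was higher in DEN_WT by 0.84 ± 0.26 (adjusted p = 0.025), although 1 DEN_WT library lay below the highest WT library. The call was lost without WT replicate 1 (0.65, adjusted p = 0.093), WT replicate 2 (adjusted p = 0.073), DEN_WT replicate 1 (0.60, adjusted p = 0.11) or DEN_WT replicate 3 (adjusted p = 0.064). In DEN_KO against DEN_WT the change of Pkm, -0.47 ± 0.26, did not pass (adjusted p = 0.17). The row sums all Pkm transcripts, so the M1 and M2 splice forms are not separated.

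The balance of the pair, log2 of Pkm over Pklr, was -5.08, -4.62 and -4.36 in WT, -4.13, -4.18 and -5.60 in KO, -2.61, -2.65 and -2.59 in DEN_WT, with -4.77, -4.46 and -4.90 in DEN_KO. The DEN_WT libraries stood apart from all 9 others, at -2.62 ± 0.03 (SD, n = 3) while the mean of WT was -4.69 ± 0.36, of KO -4.64 ± 0.83 and of DEN_KO -4.71 ± 0.23. These ratios are of counts not divided by transcript length, so they serve between groups and not as relative enzyme levels, and no test was run on them. The same ratio for Slc2a1 over Slc2a2 was -6.57 ± 0.84 in WT and between -4.29 and -4.18 on average in the other 3 groups. For Pfkp over Pfkl it was -2.66 ± 0.48 in DEN_WT, with means between -4.53 and -4.00 elsewhere and 1 DEN_KO library at -2.99. Other ratios did not set DEN_WT apart in this way. In the order WT, KO, DEN_WT and DEN_KO, the means of Aldoa over Aldoc were 2.78, 2.96, 2.86 and 2.89. Those of Eno1 over Eno3 were 5.96, 6.46, 6.35 and 6.06, and of Ldha over Ldhb 8.73, 8.30, 8.77 and 7.84. Hk2 over Hk1 had means of -1.48, -1.44, -2.32 and -1.72, and Pklr over Pck1 of -0.98, -2.50, -2.21 and -2.60.

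Ldha, which turns pyruvate into lactate, was at 18512, 19714 and 24919 in WT, 15737, 14628 and 20312 in KO, 20485, 20166 and 27483 in DEN_WT, with 13524, 17804 and 11978 in DEN_KO. DEN_KO was lower than DEN_WT (-0.66 ± 0.23, adjusted p = 0.038), a call lost without DEN_WT replicate 3 (-0.51, adjusted p = 0.14), DEN_KO replicate 1 (adjusted p = 0.097), DEN_KO replicate 3 (-0.53, adjusted p = 0.15) or KO replicate 1 (adjusted p = 0.052). Ldhb, the form favouring lactate use, stayed between 36 and 81 and was not called.

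Of the 6 pentose phosphate enzymes, 3 were higher in DEN_KO than in DEN_WT (Pgls, Tkt and Taldo1) and 1 was lower (G6pdx). G6pdx, the NADPH-making entry enzyme, was at 47, 96 and 60 in WT, 64, 95 and 177 in KO, 526, 664 and 677 in DEN_WT, with 177, 193 and 182 in DEN_KO. It was the member with the largest rise in DEN_WT, 3.24 ± 0.33 (adjusted p = 1.8e-05) or 9.42-fold, and in DEN_KO it was 3.35-fold below DEN_WT (-1.74 ± 0.33, adjusted p = 0.0016). Its rise in DEN_KO over KO, 0.84 ± 0.33, did not pass (adjusted p = 0.1), and the interaction was -2.40 ± 0.47 (adjusted p = 0.0056).

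Pgd, the second NADPH-making enzyme, did not show that loss. It was at 620, 490 and 531 in WT, 945, 801 and 697 in KO, 1350, 912 and 1027 in DEN_WT, with 1279, 1271 and 1218 in DEN_KO. Pgd was higher in DEN_WT than in WT (0.99 ± 0.17, adjusted p = 0.00096) and in DEN_KO than in KO (0.64 ± 0.17, adjusted p = 0.028), and DEN_KO and DEN_WT overlapped. The second of these calls was lost without KO replicate 2 or 3 or any 1 DEN_KO library, with adjusted p between 0.066 and 0.083.

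Between these 2 steps acts Pgls, the lactonase, at 741, 468 and 464 in WT, 521, 635 and 709 in KO, 345, 383 and 470 in DEN_WT, with 1101, 1166 and 1360 in DEN_KO. The DEN_KO libraries were the highest of the 12, above DEN_WT by 1.60 ± 0.21 (adjusted p = 0.00016) and above KO by 0.96 ± 0.21 (adjusted p = 0.0092). With the GC trend removed from each library the rise over KO was 0.66 and no longer passed (adjusted p = 0.052). The interaction was 1.42 ± 0.29 (adjusted p = 0.0072).

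Among the members, the 2 called carbon-shuffling enzymes of the non-oxidative part were also higher in DEN_KO. Transketolase, Tkt, was at 1930, 1344 and 1437 in WT, 2125, 1754 and 2066 in KO, 1372, 1441 and 1702 in DEN_WT, with 4045, 2792 and 3442 in DEN_KO. DEN_KO was above DEN_WT by 1.18 ± 0.18 (adjusted p = 0.00048) and above KO by 0.78 ± 0.18 (adjusted p = 0.014). The interaction of Tkt, 0.83 ± 0.26 (adjusted p = 0.043), was close to the threshold, and it was lost on leaving out 8 of the 12 libraries in turn, with adjusted p up to 0.098. The call against KO was lost without KO replicate 2 (adjusted p = 0.052) or DEN_KO replicate 1 (adjusted p = 0.054).

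Transaldolase, Taldo1, was at 2036, 2456 and 2724 in WT, 1814, 2157 and 1893 in KO, 1595, 1289 and 1611 in DEN_WT, with 2935, 3192 and 3104 in DEN_KO. It fell in DEN_WT (-0.68 ± 0.15, adjusted p = 0.0047), rose in DEN_KO over KO (0.66 ± 0.15, adjusted p = 0.014) and had the smallest adjusted p of the members for the interaction (1.34 ± 0.22, adjusted p = 0.0025). DEN_KO lay above DEN_WT by 1.04 ± 0.15 (adjusted p = 0.00035). The rise over KO was lost without KO replicate 1 (adjusted p = 0.056) or DEN_KO replicate 2 (adjusted p = 0.054). Rpia, which makes ribose 5-phosphate, ranged from 96 to 215 and was not called. The non-oxidative part was not uniformly higher in DEN_KO. Rpe, a gene of that part outside the members, was at 830 to 868 in DEN_WT and 436 to 538 in DEN_KO. Of the 5 pentose phosphate genes tested outside the members, 0 were higher and 2 lower in DEN_KO than in DEN_WT.

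**Figure D3:**
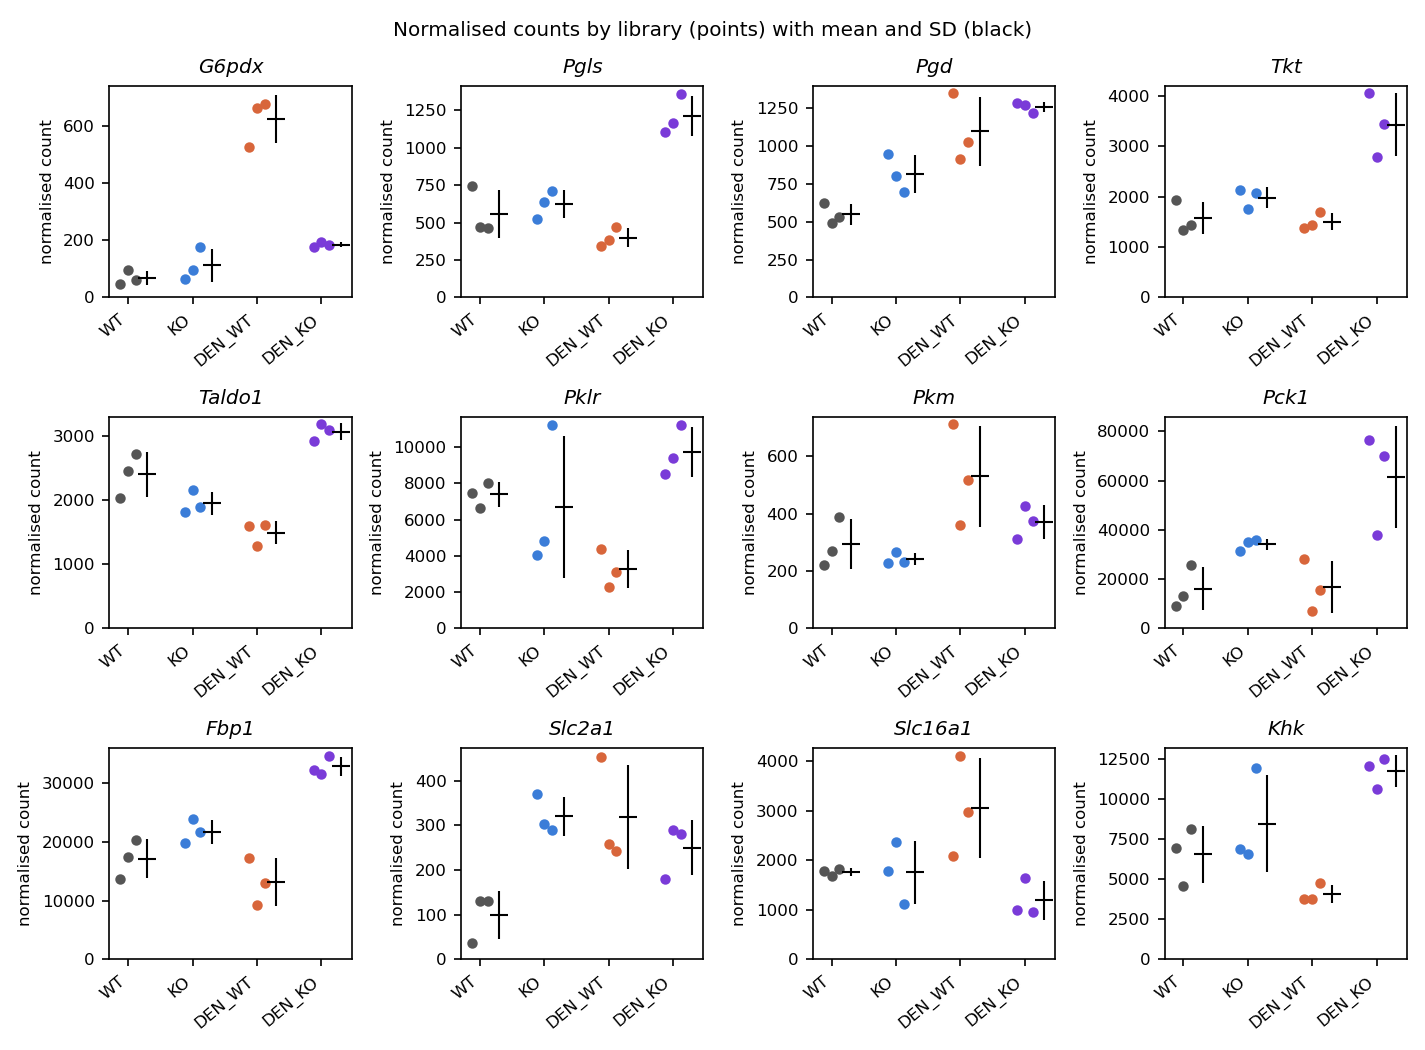
Normalised counts of 12 enzymes in each library (points, by group) with the group mean and SD (black, n = 3 libraries each). G6pdx peaks in DEN_WT at 526 to 677, while Pgls, Tkt and Taldo1 peak in DEN_KO.

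All 4 gluconeogenesis enzymes were higher in DEN_KO than in DEN_WT, and none was called in another comparison. Pck1, which makes phosphoenolpyruvate from oxaloacetate, was at 9010, 13309 and 25863 in WT, 31551, 34952 and 36017 in KO, 28132, 7106 and 15485 in DEN_WT, with 76389, 37959 and 69991 in DEN_KO. Every DEN_KO library was above every library of the other groups, and DEN_KO exceeded DEN_WT by 2.01 ± 0.47 (adjusted p = 0.0054), or 1.49 without DEN_WT replicate 2. KO was also above WT without overlap, by 1.23 ± 0.47, which did not pass (adjusted p = 0.24).

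Fbp1, which removes the phosphate that phosphofructokinase adds, was at 13661, 17457 and 20293 in WT, 19776, 23850 and 21567 in KO, 17285, 9227 and 13072 in DEN_WT, with 32216, 31493 and 34648 in DEN_KO (1.36 ± 0.24 against DEN_WT, adjusted p = 0.001). Pcx, the pyruvate carboxylase that feeds the route, was at 13476, 10531 and 13125 in WT, 16276, 14883 and 18908 in KO, 9646, 7509 and 10302 in DEN_WT, with 17553, 15950 and 18462 in DEN_KO. Pcx exceeded DEN_WT in DEN_KO by 0.93 ± 0.19 (adjusted p = 0.0024), while its DEN_KO and KO libraries overlapped (0.06 ± 0.19). The last enzyme, G6pc, releases free glucose. It was at 7094, 4766 and 11024 in WT, 6674, 6065 and 13528 in KO, 4001, 3760 and 7214 in DEN_WT, with 25517, 11245 and 8290 in DEN_KO. Its difference of 1.48 ± 0.44 (adjusted p = 0.019) was lost without DEN_WT replicate 1 (adjusted p = 0.054), DEN_WT replicate 2 (adjusted p = 0.069) or DEN_KO replicate 1 (1.02, adjusted p = 0.084).

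Of these 4, the interaction was positive but not past the threshold: 1.30 ± 0.62 for G6pc (adjusted p = 0.16), 1.00 ± 0.34 for Fbp1 (adjusted p = 0.059), 0.79 ± 0.66 for Pck1 (adjusted p = 0.45) and 0.50 ± 0.27 for Pcx (adjusted p = 0.22). A different DEN effect in the 2 genotypes was therefore not shown for these genes.

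Glycogen is built in liver by Gys2 and broken down by Pygl, and both were higher in DEN_KO than in DEN_WT. Pygl was at 8727, 6086 and 7138 in WT, 9521, 7296 and 11458 in KO, 4994, 3145 and 4298 in DEN_WT, with 9633, 6741 and 7898 in DEN_KO. It fell in DEN_WT (-0.83 ± 0.23, adjusted p = 0.015) and was higher in DEN_KO than in DEN_WT (0.97 ± 0.23, adjusted p = 0.0058). The fall was lost without WT replicate 1 (adjusted p = 0.057) or DEN_WT replicate 2 (adjusted p = 0.065), and under quantile normalization (-0.49, adjusted p = 0.097). Gys2 was at 2514, 3259 and 3733 in WT, 2237, 3305 and 3326 in KO, 2753, 2621 and 3047 in DEN_WT, with 5000, 3572 and 4295 in DEN_KO. Its difference, 0.60 ± 0.20 (adjusted p = 0.034), was lost on leaving out any DEN_WT library or DEN_KO replicate 1 or 3, with adjusted p between 0.052 and 0.12.

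Khk, the ketohexokinase that phosphorylates fructose, was at 6937, 4586 and 8117 in WT, 6889, 6554 and 11929 in KO, 3765, 3765 and 4735 in DEN_WT, with 12070, 10595 and 12501 in DEN_KO. DEN_KO exceeded DEN_WT by 1.52 ± 0.25 (adjusted p = 0.0007), or 2.88-fold. The interaction, 1.17 ± 0.36 (adjusted p = 0.039), was lost on leaving out 9 of the 12 libraries in turn, with adjusted p from 0.052 to 0.096.

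Of the 19 calls between DEN_KO and DEN_WT, 15 held under every alternative setting and every left-out library; the others were Eno3, Ldha, G6pc and Gys2. Of the 12 calls between DEN_WT and WT 6 held (Hk1, Pfkp, Slc2a1, G6pdx, Pgd and Taldo1), and of the 7 interactions 4 held (Pklr, G6pdx, Pgls and Taldo1). Of the 5 calls between DEN_KO and KO only Gpi1 held, and the single call between KO and WT did not. Genes rich in G and C tended to be higher in DEN_KO: across genes the median change against DEN_WT was -0.30 where GC was under 42% and 0.18 where it was over 50%, and against KO it was -0.24 and 0.28. The members' GC content was 41.7% to 56.0%. With that trend removed from each library, an alternative chosen after seeing the data, 16 members were higher and 4 lower.

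Other genes of glucose metabolism were followed from a list of 104 symbols, of which 102 rows were found and 98 passed the filter. Between DEN_WT and WT 15 rose and 20 fell (15.3% and 20.4% of 98), and between DEN_KO and DEN_WT 17 were higher and 16 lower (17.3% and 16.3%), with a median change of 0.01. The interaction was positive for 6 of the 98 and negative for 14 (6.1% and 14.3%). Beside these stand, over all genes, 16.1% and 13.5%, 16.4% and 17.4%, and 8.73% and 7.83%. Named below are, by rule, the called genes with the largest changes.

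Several of these genes were highest in DEN_WT. Pygb, the brain-type glycogen phosphorylase, was at 90, 77 and 63 in WT, 98, 131 and 92 in KO, 1500, 2132 and 1983 in DEN_WT, with 380, 670 and 255 in DEN_KO. It rose by 4.59 ± 0.30 in DEN_WT (adjusted p = 7.5e-07), the opposite direction to the liver form Pygl, and was lower in DEN_KO by -2.20 ± 0.30 (adjusted p = 0.00022). Pfkfb4, which sets the level of fructose 2,6-bisphosphate, was at 11, 16 and 28 in WT, 17, 11 and 16 in KO, 179, 313 and 298 in DEN_WT, with 40, 46 and 37 in DEN_KO (3.83 ± 0.36, adjusted p = 9.5e-06, and -2.62 ± 0.36 in DEN_KO against DEN_WT, adjusted p = 0.00023). Slc5a1, the sodium-coupled glucose carrier, was at 16 to 25 in WT, 17 to 33 in KO, 280 to 432 in DEN_WT and 33 to 127 in DEN_KO.

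DEN_WT was also the highest group for Trib3, a stress-induced inhibitor of insulin signalling, at 110 to 236 in WT, 268 to 360 in KO, 1004 to 2589 in DEN_WT and 334 to 540 in DEN_KO. Akr1b3, the aldose reductase that starts the sorbitol route, was at 118 to 312 in WT, 225 to 334 in KO, 734 to 1118 in DEN_WT and 166 to 255 in DEN_KO. Pgm1, a phosphoglucomutase on chromosome 5, was at 77 to 102 in WT, 91 to 119 in KO, 237 to 390 in DEN_WT and 64 to 118 in DEN_KO. Symbols are those of the deposited data, and Pgm2, on chromosome 4, is given only to tell it from Pgm1. Pgm2 was lowest in DEN_WT, at 3601 to 3731 in WT, 4206 to 4331 in KO, 2655 to 3044 in DEN_WT and 4083 to 5385 in DEN_KO. Its change in DEN_WT against WT, -0.34 ± 0.14, did not pass (adjusted p = 0.082). Pdp1, which activates pyruvate dehydrogenase, was at 12 to 21 in WT, 9 to 20 in KO, 59 to 87 in DEN_WT and 11 to 48 in DEN_KO, and Eno2, the neuronal enolase, at 1 to 5, 3 to 6, 9 to 28 and 5 to 12 in the same order. Pck2, the mitochondrial counterpart of Pck1, was at 46, 37 and 21 in WT, 74, 42 and 77 in KO, 219, 371 and 361 in DEN_WT, with 155, 138 and 174 in DEN_KO. The DEN_KO livers were below DEN_WT (-0.99 ± 0.33, adjusted p = 0.033), where Pck1 was higher.

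Me1, the NADPH-making malic enzyme, went the other way: 1516, 1643 and 2194 in WT, 1151, 1182 and 3529 in KO, 702, 537 and 657 in DEN_WT, with 3577, 2296 and 3002 in DEN_KO. It fell in DEN_WT (-1.49 ± 0.35, adjusted p = 0.0057) and was higher in DEN_KO than in DEN_WT (2.21 ± 0.35, adjusted p = 0.00051). Between KO and WT, Prkaa2, a catalytic subunit of the AMP-activated kinase, was lower (3225, 2686 and 2207 in WT against 1224, 1291 and 1721 in KO; -0.94 ± 0.18, adjusted p = 0.029). Gaa, the lysosomal enzyme that degrades glycogen, was higher (2086, 1304 and 1726 against 3124, 3505 and 2732; 0.89 ± 0.18, adjusted p = 0.036). Alternative settings and left-out libraries were followed for the members only, so the calls of these other genes have no such check.

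**Figure D4:**
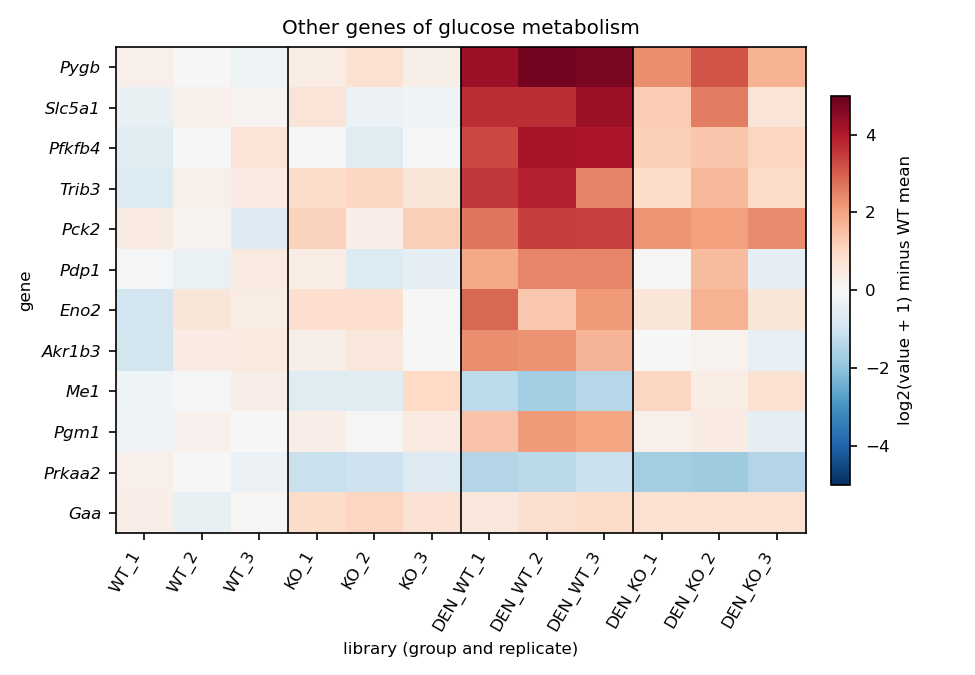
Each cell shows log2(normalised count + 1) minus the WT mean for 12 other genes of glucose metabolism (rows) in 12 libraries (columns). Pygb, Slc5a1, Pfkfb4 and Trib3 are highest in the 3 DEN_WT libraries, and Me1 is lowest there.

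Listed regions were compared with the start sites of the same 36 genes on mm9, counting a region that came within 1000 bases of the start. The Smyd3 list of DEN_WT liver held 27324 peaks with a median width of 775 bases. It placed a peak at 23 of 36 members (63.9%), against 64.2% of all genes tested, a share near that of all genes. Of these 23, 22 also had an H3K4me3 region in DEN_WT, and in 21 the 2 overlapped by at least 1 base. Of the 16 members higher in DEN_KO than in DEN_WT 12 had a Smyd3 peak, as did 10 of the 17 members called in neither direction and 1 of the 3 lower. The difference between these shares was not tested.

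Peaks of Smyd3 lay at Pck1, as 1 of 3155 bases (chr2:172978019-172981173, from 530 before to 2624 after the start), the widest of the members. They lay also at Fbp1 (chr13:62989105-62989755), Pcx (chr19:4509809-4511093), Khk (chr5:31222934-31224600), Tkt (chr14:31362029-31363036), Taldo1 (chr7:148577777-148578448), Pgls (chr8:74115576-74116955), Pgd (chr4:148540197-148541160) and Slc2a1 (chr4:118780895-118781964). None was within 1000 bases of the starts of G6pdx, Pklr, G6pc, Gys2, Pygl, Slc2a2, Tpi1 or Pfkp, which all had H3K4me3 in both lists. Hk1, Hk3, Aldoc and Ldha had no listed region of any kind at the annotated start, although Ldha RNA was at 11978 to 27483 normalised counts. The regions counted for Eno3 lay wholly upstream of its start.

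H3K4me3 regions were at 30 of 36 members in DEN_WT (83.3%, against 70.5% of all genes tested) and at 32 in DEN_KO (88.9%, against 72.4%). No member had a region in the DEN_WT list only. Slc16a3 and Ldhb had one in the DEN_KO list only. The DEN_KO list was the larger, with 17491 regions against 15579 and a median width of 1576 bases against 1480.

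Where both lists had a region the DEN_KO one was wider at 18 of 30 members and at 67.4% of all genes tested, with a median log2 width ratio of 0.11 against 0.15. Among the members higher in DEN_KO than in DEN_WT it was wider at 12 of 16, and among those called in neither direction at 5 of 12. At Pck1 the region measured 4217 bases in DEN_WT and 5801 in DEN_KO, at Fbp1 6117 and 8005, and at Pklr 1810 and 2917. At G6pdx, whose RNA was lower in DEN_KO, the region was also the wider in DEN_KO, at 5850 bases (chrX:71669905-71675754) against 2062 (chrX:71673565-71675626). Gpi1, Pgk1, Pgls and Khk, all with more RNA in DEN_KO, had narrower regions there. At Gpi1 the region was 1126 bases in DEN_KO against 2285 in DEN_WT, and at Pgk1 1885 against 2372. At Pgls and Khk it was slightly narrower, 1747 against 1888 and 4470 against 4647 bases. With 1 list per group these widths have no replicate check, and the lists give positions and no signal to compare.

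**Figure D5:**
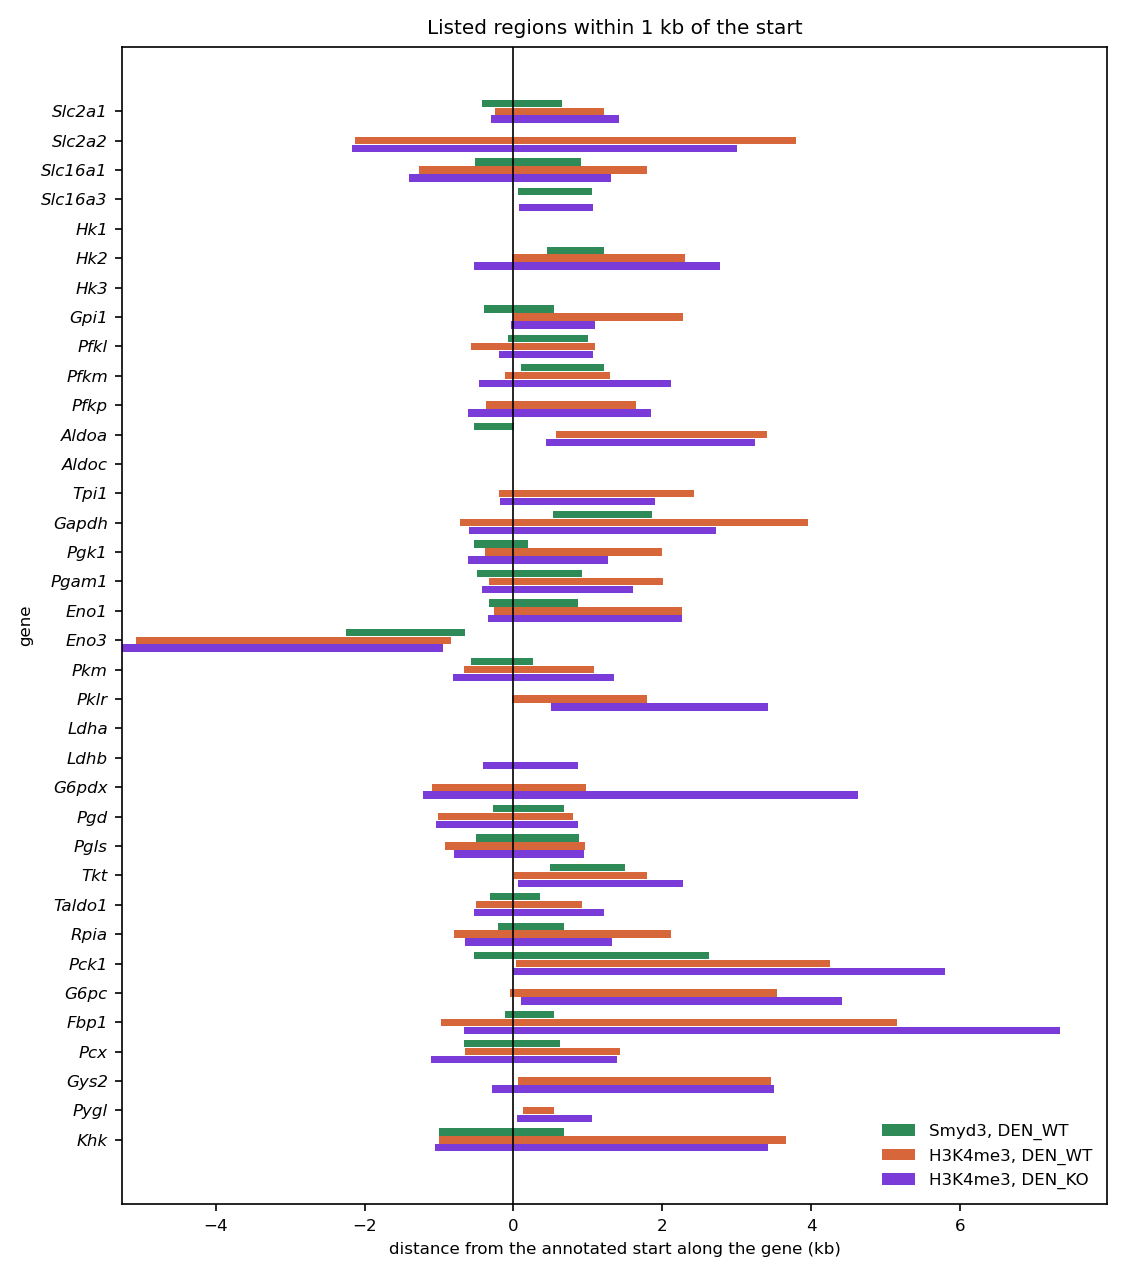
Bars show, along each gene's direction of transcription, the extent in kb of the widest region of each list within 1 kb of the annotated start (0). Bars are missing for Hk1, Hk3, Aldoc and Ldha, and the green Smyd3 bar is absent from G6pdx and Pklr.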

How the data were processed

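RNA values are the authors' deposited normalised counts per gene, rounded to whole numbers, which are treated as a score and not as raw counts. Each gene's GC content is a fraction in the deposited table and is printed as a percent. Adapters, alignment and quantification involved cutadapt, TopHat2 2.0.9, Cufflinks, Bowtie2 and DESeq on mm9, per the submitters' processing notes, which give no role or order. Poly(A) RNA was fragmented and sequenced on an Ion Proton, per the labels' protocols; how strand was used in counting is not given in the sources used here, so a gene and an antisense partner cannot be told apart. The sequencing depth before normalization is likewise not given, and the precision rests on 3 libraries a group.

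Genes at 10 or more in at least 3 libraries were fitted as log2(value + 1) with limma 3.58.1 in R 4.3.3, in 1 model of 4 groups with 8 residual degrees of freedom and a trend in the spread. P-values were two-sided and adjusted by the Benjamini-Hochberg method over all genes tested, with a threshold of 0.05. The fit was also run on simulated counts with the same dispersion for every gene, a simpler setting than these data. That run is no support for the calls. Alternatives were other scalings, pseudocounts of 0.5 and 10, other filters, no trend, array weights, the 2 groups alone, a replicate block, each library left out, and the GC trend removed. Members and lists were chosen with earlier results of these data known. Per-library values are given for members called in at least 1 comparison, and other pathway genes are named where they were among the 8 largest called changes of DEN_WT against WT or DEN_KO against DEN_WT, or called in KO against WT. Pgm2 and Rpe are named outside that rule. The peak caller is not given in the sources used here; RNA polymerase II and input samples were not analysed here. Promoters came from RefSeq (GRCm38.p6), matched by symbol for 35 of 36 members.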

Additional observations from a re-analysis of the deposited data

Results flagged for a closer look

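The DEN effect differed between KO and WT, by the interaction term of the limma fit, for 7 of 36 members and 20 of 98 other genes of glucose metabolism, of which 6 were positive and 14 negative. Positive shares were 13.9% of members, 6.1% of the other genes and 8.73% of all genes tested. Negative shares were 5.6%, 14.3% and 7.83% in the same order. Of the 20 other genes, the 9 named for their changes in another comparison are given below. Each value is the log2 change with DEN in KO minus that in WT. Among the members it was 1.91 for Pklr (adjusted p = 0.015), 1.42 for Pgls (adjusted p = 0.0072), 1.34 for Taldo1 (adjusted p = 0.0025), 1.17 for Khk (adjusted p = 0.039) and 0.83 for Tkt (adjusted p = 0.043). It was -2.40 for G6pdx (adjusted p = 0.0056) and -2.20 for Slc2a1 (adjusted p = 0.023). For Slc2a1 the untreated KO libraries already stood at 289 to 369 normalised counts, within the DEN_WT range of 243 to 452.

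Among the other named genes it was -2.98 for Trib3 (adjusted p = 0.0027), -2.67 for Pygb (adjusted p = 0.0022), -2.48 for Akr1b3 (adjusted p = 0.0046), -2.46 for Slc5a1 (adjusted p = 0.018) and -2.39 for Pfkfb4 (adjusted p = 0.0085). It was -2.04 for Pgm1 on chromosome 5 (adjusted p = 0.0045), -1.88 for Pck2 (adjusted p = 0.017) and -0.90 for Gaa (adjusted p = 0.032). For Me1 it was 2.27 (adjusted p = 0.0092).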

How the results depend on the processing

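Of 1047 values for 44 called gene and comparison pairs, 939 stayed past the threshold in the same direction and 108 kept the direction but missed it. That no sign changed says little, because the pairs were chosen as called. Several alternatives also could not move the estimate, only its p-value. These were the other filters, no trend, the replicate block, the 2 groups alone, and leaving out a library of a group outside the comparison. In DEN_WT against WT 9 to 14 members were called on leaving out 1 library, beside 12 with all, and in DEN_KO against DEN_WT 16 to 20 beside 19. In KO against WT the single call became 0 under quantile normalization, no filter, no trend, the replicate block, the GC trend removed or the 2 groups alone, and 0 to 2 without 1 library; the cause was not tested. Array weights raised the count to 8 in KO against WT, to 13 (from 5) in DEN_KO against KO and to 11 (from 7) in the interaction, and over all genes to 2610 from 191, 5034 from 2460 and 4621 from 2727. Without 1 library the last 2 counts ran from 3 to 7 and from 4 to 8. The replicate numbers did not pair the libraries (correlations of same-numbered deviations -0.10 to 0.12); with the replicate block 14 members were called for DEN in WT, 5 for DEN in KO, 19 between genotypes after DEN, 0 between untreated genotypes and 8 in the interaction. Other windows or narrow regions left out kept 17 to 27 members with a Smyd3 peak, 24 to 31 with H3K4me3 in DEN_WT and 25 to 33 in DEN_KO.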
